A study of Mus musculus with 4 samples.

Results

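The common gamma chain cytokine receptors are the receptor subunits through which T cells receive interleukin-2, interleukin-4, interleukin-7, interleukin-15 and interleukin-21. The 7 members were the genes of this family chosen by symbol, Il2ra, Il2rb, Il2rg, Il7r, Il21r, Il4ra and Il15ra, out of 32285 genes in the expression tables, and all 7 were detected. Surface tags, which are barcoded antibodies counted beside the RNA, were present for 6 members: CD25 for Il2ra, CD122 for Il2rb, CD127 for Il7r, CD124 for Il4ra, CD215 for Il15ra and IL-21R for Il21r. No tag named for Il2rg was among the 197 named tags.

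The cells were live CD3+ T cells sorted from subcutaneous tumors of Tsc2-deficient 105K mouse renal tumor cells grown in wild-type C57BL/6J mice and read by CITE-seq, a droplet method that counts transcripts and antibody tags of the same cell. Tumor cells carried a non-targeting hairpin (sh-NC) or a hairpin against B7-H3, the immune checkpoint ligand encoded by Cd276 (sh-B7-H3 (1)). Tumor cells expressed the hairpins stably, the host T cells were not altered, and 80 tumors were pooled in each group. There were 2 libraries in each group, and since tumors were pooled, p-values measure the spread between libraries, which may be technical, and not between mice. By the methods for subcutaneous tumors, the hosts were male and 6 weeks old when injected. Cd276 was targeted in tumor cells and gave 0 or 1 UMI per library in each class of T cells, so these cells cannot check the knockdown.

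Gamma chain receptors share 1 signaling subunit, encoded by Il2rg, which pairs with a chain specific for each cytokine and passes the signal through the kinases JAK1 and JAK3 to STAT factors, among them STAT5. Il2rb and Il2rg together form the receptor for interleukin-15 and the intermediate-affinity receptor for interleukin-2, and adding Il2ra makes the high-affinity interleukin-2 receptor that is typical of regulatory T cells. Il7r serves survival of resting and memory T cells and is lowered on many effector T cells, whereas Il2rb is raised on effector and memory T cells. Il15ra presents interleukin-15 to neighboring cells, Il4ra binds interleukin-4 and also interleukin-13, and Il21r binds interleukin-21.

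In the GRCm38 assembly with GENCODE vM21 annotation all 7 members are protein-coding genes. Il2ra (chr2:11642807-11693193, plus strand) and Il15ra (chr2:11705290-11734317, plus strand) are neighbors with 12096 bases between them. Il4ra (chr7:125552120-125579474, plus strand) and Il21r (chr7:125603429-125633570, plus strand) are neighbors with 23954 bases between them. Il7r (chr15:9505788-9530176, minus strand) and Il2rb (chr15:78479256-78495271, minus strand) lie far apart on 1 chromosome, and Il2rg lies on the X chromosome (chrX:101264378-101268255, minus strand).

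RefSeq promoter windows of GRCm38.p6 were matched for 6 of the 7 members, with 7 start sites. The 250 bases before the start site are shown for the member that set Foxp3 cells apart and for a member that fell with knockdown in both other classes and whose window held a motif, from chr2:11642542-11642791 on the plus strand for Il2ra and from chr15:9529877-9530126 on the minus strand for Il7r. The Il2ra window overlaps no annotated exon of the gene, and 86 bases of the Il7r window overlap annotated exons of Il7r. The whole Il7r window lies inside the gene as annotated by GENCODE, which starts at 9530176 on the minus strand, upstream of the RefSeq start site used. Capitals mark a match to 1 of 4 searched motifs, read on both strands.

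Il2ra: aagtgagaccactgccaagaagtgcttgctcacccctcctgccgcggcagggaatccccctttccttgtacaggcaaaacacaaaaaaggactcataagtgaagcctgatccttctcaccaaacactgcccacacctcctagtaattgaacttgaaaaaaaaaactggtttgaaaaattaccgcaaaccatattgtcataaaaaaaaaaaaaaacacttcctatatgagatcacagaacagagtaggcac

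Il7r: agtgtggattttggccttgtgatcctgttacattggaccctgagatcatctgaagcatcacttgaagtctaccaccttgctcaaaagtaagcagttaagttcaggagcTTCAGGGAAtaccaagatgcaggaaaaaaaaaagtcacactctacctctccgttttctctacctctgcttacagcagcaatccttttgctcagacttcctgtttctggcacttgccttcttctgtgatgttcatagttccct

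The motifs searched were TTCNNNGAA, the palindrome of STAT dimers, TGTTTAC, a forkhead motif, TGACTCA, an AP-1 motif, and TGTGGT, a RUNX motif. The Il7r window held TTCNNNGAA starting 142 bases before the RefSeq start site, inside the GENCODE gene, and 8.30% of 32851 promoter windows of 300 bases held this motif. The Il2ra window and the Il4ra window held none of the 4. The Il21r window held TGTTTAC and TGTGGT, which overlap there, against 3.65% and 16.8% of windows. The Il2rg window held TGTGGT, and the second of the 2 Il15ra start sites held TGACTCA, which 5.20% of windows held. These matches are descriptions of letters in these windows.

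Counts of unique molecular identifiers (UMIs) were summed over the cells of a class in each library. Cd4 cells had at least 1 Cd4 UMI, under 3 UMIs of Cd8a plus Cd8b1 and 0 Foxp3 UMIs, Cd8 cells had at least 3 UMIs of Cd8a plus Cd8b1, 0 Cd4 and 0 Foxp3 UMIs, and Foxp3 cells had at least 1 Foxp3 UMI and under 3 UMIs of Cd8a plus Cd8b1. No member was used to call a class. Each library held 818 to 1783 Cd4 cells, 1088 to 2506 Cd8 cells and 203 to 352 Foxp3 cells, with 1245302 to 22613168 RNA UMIs per sum. The 4 T cell markers were detected in every class, the regulatory T cell list (Foxp3, Ikzf2, Ctla4, Tnfrsf4, Tnfrsf18) summed to 3176 to 3934 UMIs per 1000000 RNA UMIs (CPM) in Foxp3 cells against 90.2 to 448 in the other classes, and Cd8a plus Cd8b1 to 1723 to 1899 CPM in Cd8 cells.

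Several facts of the libraries moved with the group. The share of called cells over 5% mitochondrial UMIs was 20.9% and 21.3% in sh-NC and 37.6% and 36.5% in sh-B7-H3 (1) libraries, and kept cells had median depths of 7915.5 and 8373 against 6476.5 and 6638 UMIs. Any pair of libraries shared 17 to 35 cell barcodes, at most 0.427% of the smaller library. The 2 Cd8 genes in Cd4 cells summed to 27.4 and 27.6 CPM in sh-NC and 50.9 and 47.0 CPM in sh-B7-H3 (1) libraries. In Cd4 cells the 8-gene myeloid list summed to 222 to 304 CPM in sh-NC and 388 to 395 CPM in sh-B7-H3 (1) libraries. That list summed to 171 and 244 against 249 and 270 CPM in Cd8 cells, and in Foxp3 cells to 378 to 847 CPM with overlapping groups. Other lists in Foxp3 cells did not overlap between groups, with the 2 Cd8 genes at 34.0 and 24.6 CPM in sh-NC against 65.0 and 61.8 CPM in sh-B7-H3 (1) libraries, the gamma-delta list at 14.4 and 8.51 against 25.7 and 49.2 CPM, and the tumor and stroma list at 26.4 and 24.6 against 41.8 and 34.7 CPM. The T cell, Cd4 and regulatory T cell lists were also higher there in both knockdown libraries than in both controls. The regulatory T cell list summed to 208 and 214 CPM in sh-NC against 427 and 448 CPM in sh-B7-H3 (1) Cd4 cells, and to 90.2 and 99.9 against 199 and 188 CPM in Cd8 cells, with Foxp3 itself at 0 in both classes by their definition. The gamma-delta T cell list (Trdc, Trgv2, Tcrg-C1, Tcrg-C2) summed to 42.8 to 59.8 CPM in sh-NC Cd4 and Cd8 cells and to 175 to 254 CPM in sh-B7-H3 (1) Cd4 and Cd8 cells. The NK cell list reached at most 2.49 CPM with Ncr1 at 0 in all 3 classes, and the B cell list at most 22.5 CPM. The tumor and stroma list summed to 4.42 to 7.15 CPM in sh-NC and 9.57 to 11.9 CPM in sh-B7-H3 (1) Cd4 and Cd8 cells. The part of these lists, of mitochondrial share and of depth in the results was not tested.

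Knockdown of B7-H3 in the tumor cells went with rises of some receptor subunits and falls of others, in the same directions in Cd4 and Cd8 cells. Il2rb, the signaling chain shared by the interleukin-2 and interleukin-15 receptors, rose 6.81-fold in Cd4 and 3.42-fold in Cd8 cells, and Il15ra rose 2.02-fold and 1.72-fold. Il7r fell to 0.406 and 0.415 of its sh-NC level and Il4ra to 0.647 and 0.593. In Foxp3 cells Il2rb rose 1.26-fold and Il2ra fell to 0.819 of its sh-NC level. By edgeR's quasi-likelihood test at an adjusted p under 0.05, 5 of 7 members passed in Cd4 cells (2 higher, 3 lower), where 39.9% of 11177 genes passed. The same 5 of 7 passed in Cd8 cells with the same directions, where 41.2% of 11527 genes passed, and 2 of 7 passed in Foxp3 cells (1 higher, 1 lower), where 5.26% of 8787 genes passed. With a fold of at least 2 also required, Il2rb, Il15ra and Il7r remained in Cd4 cells and Il2rb and Il7r in Cd8 cells, beside 9.64% and 8.63% of genes, and no member remained in Foxp3 cells, beside 0.956%. The median log2 fold change of the members was -0.13 in Cd4, -0.10 in Cd8 and -0.19 in Foxp3 cells, against -0.003, 0.004 and 0.001 over all genes. In summed classes, more cells with a transcript and more transcript per cell cannot be told apart. Cd4 and Cd8 cells came from the same droplet libraries, so their effects are set side by side and are not independent.

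**Figure D1:**
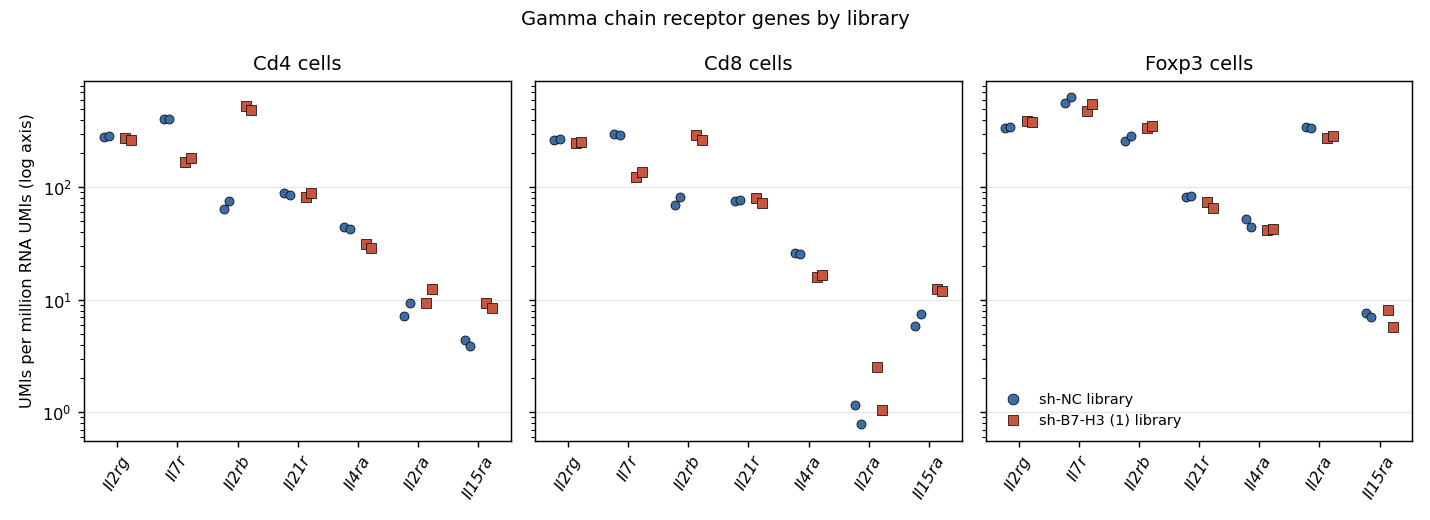
Level of each member in CPM (log axis) in the 4 libraries, for Cd4, Cd8 and Foxp3 cells; each circle is 1 sh-NC library and each square 1 sh-B7-H3 (1) library. The Il2rb squares stand far above the circles in Cd4 cells (488 and 531 against 64.5 and 76.0) and Il2ra stands high in Foxp3 cells alone (274 to 344 against at most 12.4 in Cd4 cells).

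Il2rb was the member that moved most. In Cd4 cells it measured 64.5 and 76.0 CPM in the sh-NC libraries and 531 and 488 CPM in the sh-B7-H3 (1) libraries. Both knockdown libraries lay far above both controls, and the log2 fold change was 2.77 ± 0.05 (SE, adjusted p = 1.5e-19). In Cd8 cells the 4 values were 69.8, 82.1, 289 and 266 CPM in the same order. The groups again did not overlap, and the log2 fold change was 1.78 ± 0.05 (adjusted p = 1.3e-16). In Foxp3 cells, where sh-NC levels were already 259 and 285 CPM, the sh-B7-H3 (1) libraries measured 335 and 351 CPM, a log2 fold change of 0.34 ± 0.08 (adjusted p = 0.0079). This call in Foxp3 cells was lost without sh-NC library 1 (adjusted p = 0.10), without sh-B7-H3 (1) library 2 (adjusted p = 0.19), with at least 2 Foxp3 UMIs per cell (adjusted p = 0.31) and in DESeq2 (adjusted p = 0.11). The knockdown effect differed between classes, being 0.99 ± 0.07 smaller on the log2 scale in Cd8 than in Cd4 cells (adjusted p = 2.1e-15) and 2.41 ± 0.08 smaller in Foxp3 than in Cd4 cells (adjusted p = 5.6e-26). Across all genes 2.99% and 6.75% passed these tests of a difference in effect.

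Il15ra, the chain that presents interleukin-15, was sparse. In Cd4 cells it measured 4.34 and 3.84 CPM in sh-NC and 9.42 and 8.45 CPM in sh-B7-H3 (1) libraries, a log2 fold change of 1.02 ± 0.20 (adjusted p = 0.00036). In Cd8 cells it measured 5.88 and 7.44 against 12.3 and 12.02 CPM (0.78 ± 0.14, adjusted p = 9.5e-05). Neither class had overlapping groups. In Foxp3 cells the values of 7.61, 7.09, 8.03 and 5.68 CPM overlapped between the groups (-0.13 ± 0.43, adjusted p = 0.92), and the sign of that difference turned in 5 alternatives (0.01 to 0.20).

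Il7r, the interleukin-7 receptor alpha chain, fell in both conventional classes. Cd4 cells held 409 and 403 CPM in sh-NC and 168 and 182 CPM in sh-B7-H3 (1) libraries (log2 fold change -1.30 ± 0.04, adjusted p = 1.0e-15). Cd8 cells held 301 and 289 against 123 and 137 CPM (-1.27 ± 0.05, adjusted p = 6.4e-15). Foxp3 cells held 560.4 and 630.2 against 481 and 554 CPM, which do not overlap, and the log2 fold change of -0.19 ± 0.08 did not pass (adjusted p = 0.14). It passed without sh-NC library 1 (-0.26, adjusted p = 0.047), without doublet removal (-0.24, adjusted p = 0.026) and with up to 10% mitochondrial UMIs (-0.31, adjusted p = 0.0022), and was -0.05 without cells holding myeloid UMIs (adjusted p = 0.89). It was -0.13 without sh-NC library 2 (adjusted p = 0.47), -0.10 without sh-B7-H3 (1) library 1 (adjusted p = 0.71) and -0.31 without sh-B7-H3 (1) library 2 (adjusted p = 0.13). The effect in Foxp3 cells was 1.13 ± 0.07 above that in Cd4 cells on the log2 scale (adjusted p = 6.0e-16), whereas the Cd8 and Cd4 effects differed by 0.03 ± 0.06 (adjusted p = 0.93).

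Il4ra, the interleukin-4 and interleukin-13 receptor alpha chain, fell with Il7r in both conventional classes. In Cd4 cells it measured 44.0 and 42.9 CPM in sh-NC against 31.2 and 29.1 CPM in sh-B7-H3 (1) libraries (-0.63 ± 0.08, adjusted p = 2.9e-06). In Cd8 cells it measured 26.1 and 25.7 against 15.9 and 16.7 CPM (-0.75 ± 0.09, adjusted p = 3.3e-07). In Foxp3 cells the values were 52.4 and 44.4 against 41.8 and 42.3 CPM, which did not pass (-0.21 ± 0.18, adjusted p = 0.61). That value was -0.06 without sh-NC library 1 (adjusted p = 0.96), -0.34 without sh-NC library 2 (adjusted p = 0.48), -0.38 with lineage by surface tags (adjusted p = 0.38) and -0.11 with at least 2 Foxp3 UMIs (adjusted p = 0.89).

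Il2rg, the shared chain, fell slightly. Its Cd4 values of 281 and 285 CPM in sh-NC and 274 and 262 CPM in sh-B7-H3 (1) libraries gave a log2 fold change of -0.17 ± 0.04 (adjusted p = 0.0010), and its Cd8 values of 264, 271, 246 and 254 CPM gave -0.19 ± 0.04 (adjusted p = 0.00068). Both calls were lost when sums were scaled to library totals without TMM factors (-0.08, adjusted p = 0.11, and -0.09, adjusted p = 0.062). In Foxp3 cells it measured 338 and 347 against 391 and 382 CPM (0.18 ± 0.08, adjusted p = 0.20), and the Foxp3 effect lay 0.36 ± 0.07 above the Cd4 effect (adjusted p = 0.00054).

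Il2ra, the high-affinity interleukin-2 receptor chain, was at 344 and 339 CPM in sh-NC Foxp3 cells and 274 and 284 CPM in sh-B7-H3 (1) Foxp3 cells. The groups did not overlap, and the log2 fold change was -0.29 ± 0.08 (adjusted p = 0.027). Leaving out sh-NC library 1, sh-B7-H3 (1) library 1 or sh-B7-H3 (1) library 2 ended this call, with adjusted p from 0.15 to 0.21 and log2 fold changes from -0.32 to -0.26, and so did removing cells with myeloid UMIs (-0.23, adjusted p = 0.27), no upper gene limit (adjusted p = 0.093), lineage by surface tags (adjusted p = 0.11), at least 2 Foxp3 UMIs (adjusted p = 0.19) and DESeq2 (adjusted p = 0.16). The Cd4 values of 7.19, 9.44, 9.42 and 12.4 CPM overlapped between groups (0.33 ± 0.18, adjusted p = 0.15), with a difference that passed when cells with up to 10% mitochondrial UMIs were kept (0.39, adjusted p = 0.042) and without sh-NC library 2 (0.52, adjusted p = 0.030). It was 0.14 without sh-NC library 1 (adjusted p = 0.63), 0.51 without sh-B7-H3 (1) library 1 (adjusted p = 0.069), 0.086 without sh-B7-H3 (1) library 2 (adjusted p = 0.83), 0.093 with lineage by surface tags (adjusted p = 0.64) and 0.20 without cells with myeloid UMIs (adjusted p = 0.48). The Cd8 values of 1.15, 0.778, 2.52 and 1.05 CPM also overlapped (0.68 ± 0.40, adjusted p = 0.19) and gave 0.43 without sh-NC library 2 (adjusted p = 0.51), 0.45 with no upper gene limit (adjusted p = 0.38), 0.02 without sh-B7-H3 (1) library 1 (adjusted p = 0.98) and 1.27 without sh-B7-H3 (1) library 2 (adjusted p = 0.024). The Il2ra effect was 0.61 ± 0.19 lower in Foxp3 than in Cd4 cells (adjusted p = 0.046). Il21r did not pass in any class, with log2 fold changes of -0.13 ± 0.06 in Cd4 (adjusted p = 0.097), -0.10 ± 0.05 in Cd8 (adjusted p = 0.16) and -0.25 ± 0.13 in Foxp3 cells (adjusted p = 0.31, and -0.04 without cells with myeloid UMIs) and levels from 65.0 to 89.8 CPM throughout. Leaving out sh-B7-H3 (1) library 1 or 2 gave -0.07 and -0.19 for Il21r in Cd4 cells (adjusted p = 0.50 and 0.090), -0.15 and -0.03 in Cd8 cells (adjusted p = 0.042 and 0.80) and -0.34 and -0.15 in Foxp3 cells (adjusted p = 0.29 and 0.75). Without TMM factors it was -0.03 in Cd4 and -0.004 in Cd8 cells, and with at least 2 Foxp3 UMIs -0.43 in Foxp3 cells (adjusted p = 0.19).

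**Figure D2:**
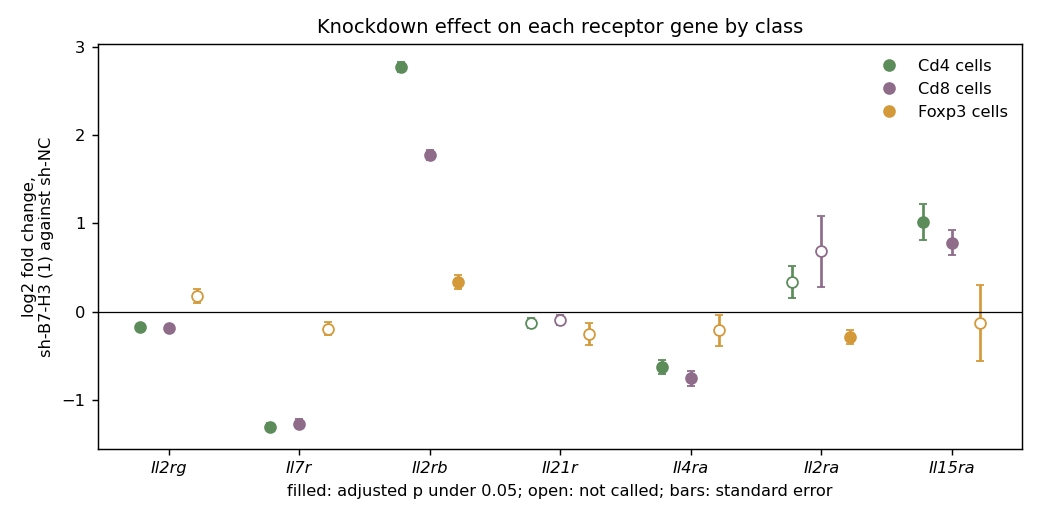
Log2 fold change of each member, sh-B7-H3 (1) against sh-NC, in Cd4, Cd8 and Foxp3 cells, with standard errors over 2 against 2 libraries; filled points passed an adjusted p of 0.05 and open points did not. Cd4 and Cd8 points lie together for Il7r (-1.30 and -1.27) and apart for Il2rb (2.77 and 1.78), and the Foxp3 points lie within 0.34 of 0.

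The classes themselves differed in which chains they carried, with library as a term in the fit of all 12 sums. The fit pooled both groups without a term for group by class, so its spread includes any difference in class levels between them. Foxp3 cells exceeded Cd4 cells in Il2ra by 4.85 ± 0.14 (SE) on the log2 scale and Cd8 cells by 7.65 ± 0.18 (adjusted p = 3.5e-11 and 1.6e-12), and the difference of Cd8 from Cd4 cells was -2.80 ± 0.25 (adjusted p = 2.8e-06). The order of Il2ra was thus Foxp3, Cd4, Cd8 with every neighbor apart. Cd4 cells were called by 0 Foxp3 UMIs, so cells that express Foxp3 without a captured UMI can be among them. Their part in the Il2ra level of Cd4 cells, here and below, was not tested. Requiring at least 2 Foxp3 UMIs left the Cd4 class unchanged. Il7r was also highest in Foxp3 cells, by 0.84 ± 0.18 over Cd4 (adjusted p = 0.0026) and 1.14 ± 0.18 over Cd8 cells (adjusted p = 0.00016), and the difference of Cd8 from Cd4 cells did not pass (-0.30 ± 0.17, adjusted p = 0.26) although Il7r in CPM was lower in Cd8 cells in all 4 libraries. That difference passed with library totals without TMM factors (-0.45, adjusted p = 0.048). Il4ra was lowest in Cd8 cells, by 0.64 ± 0.09 against Cd4 cells (adjusted p = 0.00012) and by 0.70 against Foxp3 cells (adjusted p = 0.00017), and the difference between Foxp3 and Cd4 cells was 0.06 ± 0.11 (adjusted p = 0.73). Over both groups together Il15ra was 0.72 ± 0.15 higher in Cd8 than in Cd4 cells (adjusted p = 0.0034), and Foxp3 cells lay 0.65 below Cd8 cells (adjusted p = 0.032), a call lost with at least 2 Foxp3 UMIs per cell (-0.51, adjusted p = 0.13) and without TMM factors (-0.29, adjusted p = 0.33). In the sh-NC libraries alone Foxp3 cells held 7.61 and 7.09 CPM of Il15ra against 5.88 and 7.44 CPM in Cd8 cells. Il21r lay 0.39 below Cd4 and 0.36 below Cd8 in Foxp3 cells (adjusted p = 0.00054 and 0.00067), and neither passed with library totals without TMM factors (-0.17 and 0.01, adjusted p = 0.084 and 0.94). Neither Il2rb nor Il2rg passed in any of these contrasts. With at least 2 Foxp3 UMIs per cell Il2rg passed between Foxp3 and Cd4 cells (0.25, adjusted p = 0.023) and Il2rb between Foxp3 and Cd8 cells (0.93, adjusted p = 0.047), and without TMM factors the same contrasts passed (0.40 and 1.19, adjusted p = 0.00011 and 0.011), as did Il2rg between Foxp3 and Cd8 cells (0.49, adjusted p = 1.0e-05). For Il2rb the class levels ran opposite ways in sh-NC and sh-B7-H3 (1) libraries: Foxp3 cells held 259 and 285 CPM against 64.5 and 76.0 CPM in Cd4 cells of sh-NC libraries, and 335 and 351 against 531 and 488 CPM in sh-B7-H3 (1) libraries. Of all 11714 genes, 20.5% passed between Cd8 and Cd4, 30.5% between Foxp3 and Cd4 and 39.5% between Foxp3 and Cd8 cells.

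Class contrasts depended on the scaling. With library totals in place of TMM factors the median of all genes moved to -0.16 for Cd8 against Cd4, 0.19 for Foxp3 against Cd4 and 0.35 for Foxp3 against Cd8 cells. Of 11714 genes, 2396, 3574 and 4632 had passed with TMM factors in the same order, and 3344, 4326 and 6310 passed with library totals. On that scale Il2rg was higher in Foxp3 than in Cd4 cells (0.40, adjusted p = 0.00011), the Il21r differences of Foxp3 cells no longer passed (-0.17, adjusted p = 0.084, and 0.01, adjusted p = 0.94), nor did Il15ra against Cd8 cells (-0.29, adjusted p = 0.33). Il2rg and Il2rb passed between Foxp3 and Cd8 cells (0.49, adjusted p = 1.0e-05, and 1.19, adjusted p = 0.011), Il4ra between Foxp3 and Cd4 cells (0.28, adjusted p = 0.040), and Il7r and Il21r between Cd8 and Cd4 cells (-0.45, adjusted p = 0.048, and -0.18, adjusted p = 0.039). The sign of Il2rg between Cd8 and Cd4 cells turned from 0.06 to -0.09, which passed on neither scale. The Il2ra contrasts of every pair, the Il7r contrasts of Foxp3 cells, and the Il4ra and Il15ra contrasts of Cd8 against Cd4 cells passed on both scales.

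Cells were next split by a gene outside the family. Nkg7 encodes a cytotoxic granule protein, and the share of Cd4 cells with 3 or more Nkg7 UMIs was 7.91% and 9.57% in sh-NC and 47.7% and 46.4% in sh-B7-H3 (1) libraries, while Cd4 cells with 0 Nkg7 UMIs made up 85.2% and 84.1% against 34.4% and 32.4%. Il2rb measured 15.2 to 32.8 CPM in Cd4 cells without Nkg7 and 708 to 1103 CPM in those with 3 or more UMIs, a log2 difference of 5.01 ± 0.08 (adjusted p = 3.7e-21). Il7r ran the other way, at 295 to 438 CPM without and 19.5 to 43.3 CPM with Nkg7 (-4.25 ± 0.10, adjusted p = 7.6e-19). Il4ra measured 45.6 to 50.9 CPM without Nkg7 and 8.16 to 11.3 CPM with it (-2.70 ± 0.15, adjusted p = 1.8e-12), Il15ra was 1.99 ± 0.27 higher with Nkg7 (adjusted p = 2.4e-06) and the Il2ra difference was -1.40 ± 0.27 (adjusted p = 0.00017). The Il2rg difference was -0.30 (adjusted p = 0.00015) with TMM factors and 0.09 (adjusted p = 0.17) with library totals, where the median of all genes moved to 0.41, and Il21r passed only with library totals (0.11, adjusted p = 0.29, against 0.50, adjusted p = 2.7e-05). Between these strata 54.6% of genes passed, and the comparison was added after the strata had been seen.

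The groups were also compared within each Cd4 stratum. Among Cd4 cells without Nkg7 UMIs, 3 members passed, beside 3.93% of genes. Il2ra there measured 7.01 and 10.2 CPM in sh-NC against 14.5 and 18.0 CPM in sh-B7-H3 (1) libraries (1.04 ± 0.23, adjusted p = 0.0023). These levels rest on 85 and 104 against 30 and 44 UMIs. Il2ra in RNA of uncalled barcodes was higher, at 25.3 to 35.6 CPM over all libraries. The share of these cells with an Il2ra UMI overlapped between groups, at 2.83% and 4.49% against 6.05% and 4.32%. With cells cut to equal depth that share was 1.06% and 1.91% against 2.15% and 1.20%, which also overlapped. Il2rb there measured 15.2 and 16.6 against 23.2 and 32.8 CPM (0.92 ± 0.17, adjusted p = 0.00015). Il7r measured 438 and 436 against 295 and 310 CPM (-0.44 ± 0.05, adjusted p = 8.6e-10). Among Cd4 cells with 3 or more Nkg7 UMIs only Il2rb passed, from 708 and 742 CPM to 1103 and 1030 CPM (0.65 ± 0.06, adjusted p = 2.4e-07), beside 4.15% of genes. Il4ra and Il15ra, which differed between groups over all Cd4 cells, did not pass in either stratum (adjusted p from 0.52 to 0.99). Il4ra was at 0.18 ± 0.11 without Nkg7 and -0.14 ± 0.38 with it, and Il15ra at -0.05 ± 0.46 and 0.12 ± 0.31. In library order Il15ra rested on 38, 33, 9 and 4 UMIs without Nkg7, and Il4ra on 11, 10, 28 and 28 with it. Il2rg, also called over all Cd4 cells, passed in neither (-0.09 ± 0.05, adjusted p = 0.46, without Nkg7 and -0.05 ± 0.08, adjusted p = 0.86, with it). With such counts and errors, a call missed in a stratum does not show that no difference remained there.

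Cd8 cells differed from Cd4 cells in this respect, since 78.6% to 90.7% of them had 3 or more Nkg7 UMIs in every library. That stratum is most of the class, so its comparison largely repeats that of the class. Il2rb there measured 81.3 and 93.4 CPM in sh-NC and 315 and 291 CPM in sh-B7-H3 (1) libraries (1.68 ± 0.05, adjusted p = 8.1e-12). Il7r fell from 298 and 286 to 112 and 126 CPM (-1.39 ± 0.05, adjusted p = 3.7e-11), Il4ra fell by 0.82 (adjusted p = 2.5e-06), Il15ra rose by 0.89 (adjusted p = 0.00010) and Il2rg fell by 0.18 (adjusted p = 0.0015), so the 5 members called over all Cd8 cells passed here, beside 39.8% of genes. Cd8 cells without Nkg7 UMIs numbered 17 to 139 per library, and no member passed among them, where 0.212% of genes passed. Between the Cd8 strata Il2rb was the only one of 6 tested members that passed (2.33 ± 0.19, adjusted p = 1.1e-32), beside 3.97% of genes.

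**Figure D3:**
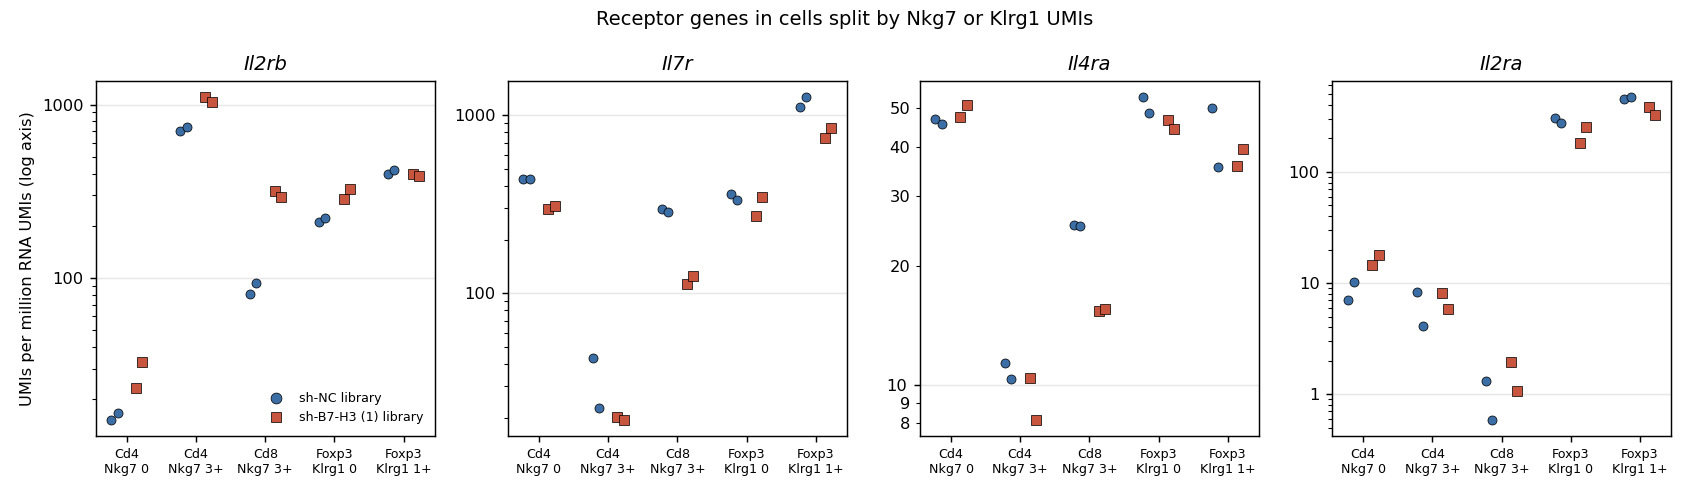
Levels of Il2rb, Il7r, Il4ra and Il2ra in CPM (log axis) in 5 strata of cells set by Nkg7 or Klrg1 UMIs, 1 point per library, circles for sh-NC and squares for sh-B7-H3 (1). Il2rb and Il7r run opposite ways in the Cd4 strata (15.2 to 32.8 against 708 to 1103 for Il2rb, 295 to 438 against 19.5 to 43.3 for Il7r), and Il7r is highest in Foxp3 cells with Klrg1 (739 to 1259).

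Foxp3 cells were split by Klrg1, a receptor found on effector regulatory T cells. The share with a Klrg1 UMI was 30.4% and 37.8% in sh-NC and 44.3% and 40.4% in sh-B7-H3 (1) libraries. Il7r was higher in Foxp3 cells with a Klrg1 UMI, at 1115, 1259, 739 and 848 CPM in sh-NC libraries 1 and 2 and sh-B7-H3 (1) libraries 1 and 2, than in those without, at 361, 335, 271 and 345 CPM (log2 difference 1.22 ± 0.11, adjusted p = 1.7e-08, and 1.58 with library totals). Il2ra (0.32 ± 0.11, adjusted p = 0.040) and Il2rg (0.31 ± 0.10, adjusted p = 0.024) were also higher with Klrg1, and Il4ra was lower (-0.62 ± 0.17, adjusted p = 0.010, and -0.25 with library totals, adjusted p = 0.28). With library totals the median of all genes moved to 0.37, Il2rb also passed (0.65, adjusted p = 0.00028, against 0.29, adjusted p = 0.059), and Il21r turned from -0.20 to 0.17 without passing on either scale. Between these strata 26.3% of genes passed. Il15ra was not tested there because it did not pass the filter on low counts. In Foxp3 cells without Klrg1 the knockdown libraries had less Il2ra (304 and 277 against 184 and 254 CPM, -0.40 ± 0.12, adjusted p = 0.043) and more Il2rb (210.0 and 222 against 286 and 324 CPM, 0.49 ± 0.10, adjusted p = 0.0031), beside 4.29% of genes. In those with Klrg1 only Il7r passed (-0.44 ± 0.11, adjusted p = 0.018), beside 1.21% of genes. Without Klrg1 the Il7r effect was -0.18 ± 0.10 (adjusted p = 0.41). In Cd4 cells it was -0.44 ± 0.05 without Nkg7 UMIs and -0.64 ± 0.26 with 3 or more (adjusted p = 0.21). The Il7r effects of whole classes, which differed by 1.13 between Foxp3 and Cd4 cells, are sums over strata whose shares differed between groups. The part of these shares was not tested.

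Shares of cells with at least 1 UMI of a member were compared after each cell had been thinned to 2000 UMIs, which left out 0 to 31 cells per class and library. Il2rb was found in 7.76% and 8.81% of sh-NC and 41.7% and 40.1% of sh-B7-H3 (1) Cd4 cells, and Il7r in 46.3% and 43.0% against 21.5% and 21.7%. In Cd8 cells Il2rb went from 11.2% and 14.0% to 35.5% and 35.7% and Il7r from 37.6% and 36.4% to 14.7% and 16.6%. In Foxp3 cells Il2rb was found in 34.6% and 42.6% against 44.8% and 40.3%, with overlapping groups. Il2rg was found in 38.4% to 43.7% of Cd4 and Cd8 cells of every library. Each difference without overlap gave an exact permutation p of 0.33 (two-sided), the smallest that 2 against 2 libraries allow. Unthinned, the difference in Il2rb was 37.6 and 29.4 percentage points in Cd4 and Cd8 cells and that in Il7r was -34.3 and -37.4 points. In Foxp3 cells the Il2rb difference turned from 3.99 points thinned to -0.39 points unthinned, so the shares give it no direction.

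Il2ra was found in 36.3% to 40.9% of Foxp3 cells, 1.24% to 1.83% of Cd4 cells and 0.0672% to 0.240% of Cd8 cells. Before thinning the median cell held 6059 to 6907 UMIs among Foxp3, 6903 to 8054 among Cd4 and 6935.5 to 9022.5 among Cd8 cells. In every library the share in Cd8 cells lay below that in Cd4 cells. RNA in uncalled barcodes of 10 to 100 UMIs held Il2ra at 25.3 to 35.6 CPM, above the Cd4 and Cd8 levels, Il21r at 90.3 to 164 CPM, above the level in each class, and Il15ra at 8.34 to 16.0 CPM, above the Cd4 level. Il2rg was at 302 to 388 CPM in free RNA, above its Cd4 and Cd8 levels in every library, and Il4ra at 28.7 to 69.7 CPM, above its Cd8 level in every library and its Cd4 level in all but sh-B7-H3 (1) library 2. Il2rb in free RNA was at 112 and 119 CPM in sh-NC libraries, above their Cd4 and Cd8 levels, and at 297 and 232 CPM in sh-B7-H3 (1) libraries, below their Cd4 levels. Beside the Cd8 levels of 289 and 266 CPM, free RNA was higher in sh-B7-H3 (1) library 1 and lower in sh-B7-H3 (1) library 2. Il7r in free RNA was at 376, 329.7, 275 and 297 CPM, above the Cd4 and Cd8 levels of the sh-B7-H3 (1) libraries. In sh-NC libraries it was above the Cd8 levels (301 and 289 CPM) and below the Cd4 levels (409 and 403 CPM). The part of free RNA in the class levels was not tested. Il21r was thus no higher in called cells than in free RNA, and its share of cells was 12.5% to 16.7% over the 3 classes. In the myeloid cells (24 to 92 per library), Il21r measured 25.8 to 42.0 CPM and Il2rb 0 to 90.4 CPM, from 3 to 5 and 0 to 14 UMIs.

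Within single cells Il2rb and Il7r seldom occurred together in conventional classes. At 2000 UMIs, 0.908% to 2.50% of Cd4 cells held both, and Il2rb was found in 2.11% to 11.5% of Cd4 cells with Il7r and 12.3% to 50.6% of those without. In Cd8 cells 2.28% to 3.08% held both, and Il2rb was found in 7.66% to 18.9% of those with Il7r and 13.3% to 40.0% of those without. In Foxp3 cells 16.4% to 27.5% held both, and Il2rb was found in 31.5% to 47.9% of those with Il7r and 36.1% to 41.8% of those without. Transcripts of all 3 chains of the high-affinity interleukin-2 receptor were found together in 8.07% to 13.4% of Foxp3 cells, 0.140% to 0.577% of Cd4 cells and 0 of the thinned Cd8 cells.

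**Figure D4:**
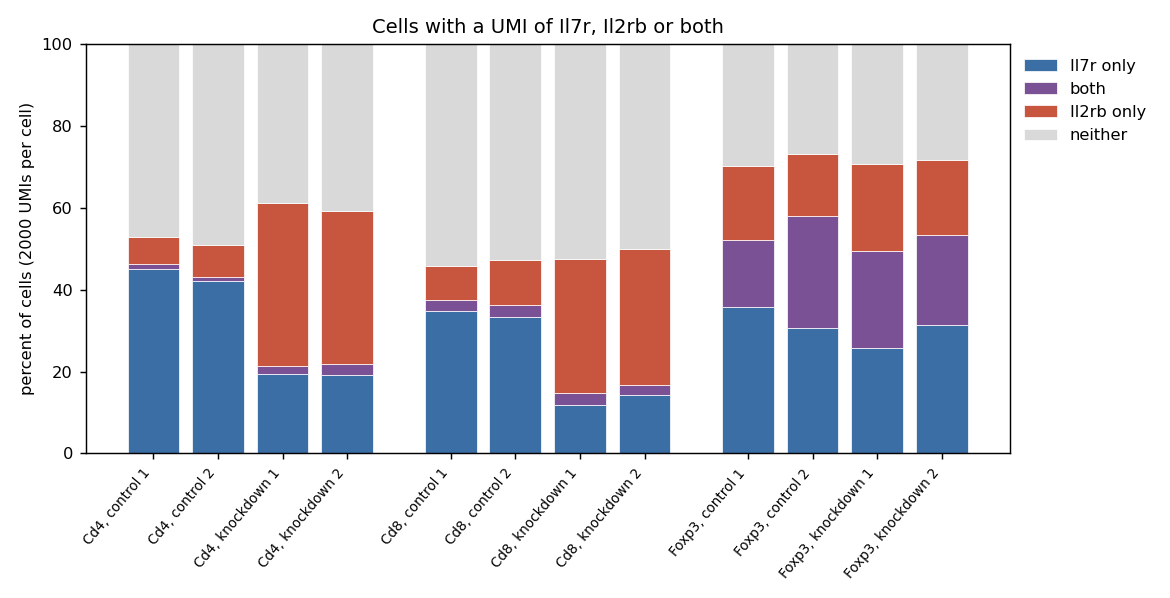
Percent of cells, thinned to 2000 UMIs each, with a UMI of Il7r alone, of both, of Il2rb alone or of neither, 1 bar per class and library (control for sh-NC, knockdown for sh-B7-H3 (1)). In Cd4 cells the share with Il2rb alone is 6.58% and 7.90% in sh-NC and 39.7% and 37.6% in sh-B7-H3 (1) libraries, and Foxp3 bars hold the largest share with both (16.4% to 27.5%).

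Surface tags were read as UMIs per 1000000 tag UMIs of the class (tag CPM), beside 9 isotype control tags whose sum differed between groups, at 2581 to 3093 tag CPM in sh-NC and 3629 to 4178 tag CPM in sh-B7-H3 (1) sums over the 3 classes. In edgeR fits of all 197 named tags with TMM factors, 53.3% of tags passed in Cd4, 62.9% in Cd8 and 38.1% in Foxp3 cells. With tag totals in place of TMM factors the median of all tags moved to 0.31, 0.43 and 0.36 on the log2 scale in the 3 classes.

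CD127, the Il7r protein, followed its transcript. It measured 11651 and 13307 tag CPM in sh-NC and 7109 and 7839 tag CPM in sh-B7-H3 (1) Cd4 cells (-1.05 ± 0.11, adjusted p = 0.0054) and 8908 and 8860 against 5694 and 6319 tag CPM in Cd8 cells (-0.98 ± 0.05, adjusted p = 0.0011). CD124, the Il4ra protein, measured 19619 and 18439 against 13429 and 13765 tag CPM in Cd4 cells (-0.79 ± 0.04, adjusted p = 0.0015) and 19062 and 18731 against 14508 and 15349 tag CPM in Cd8 cells (-0.75 ± 0.04, adjusted p = 0.00091). Over each class both tags were lower in every knockdown library and passed on all 3 scales in Cd4 and Cd8 cells. Among Cd4 cells with 3 or more Nkg7 UMIs they were not lower, with CD127 at 2452 and 2289 tag CPM in sh-NC against 3772 and 3672 tag CPM in sh-B7-H3 (1) libraries and CD124 at 9544 and 9783 against 10201 and 10131 tag CPM, while isotypes there were 2072 and 2058 against 3327 and 3315 tag CPM. Divided by the isotypes of those cells, CD127 was 1.18 and 1.11 against 1.13 and 1.11, which overlapped, and CD124 was 4.61 and 4.75 against 3.07 and 3.06. In Foxp3 cells they fell by 0.52 and 0.51 with TMM factors (adjusted p = 0.013 and 0.0032), and neither passed with tag totals (-0.17 for each, adjusted p = 0.13 for each).

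CD122, the Il2rb protein, gave differences whose direction depended on the scale. It measured 1582 and 1499 tag CPM in sh-NC and 1810 and 1729 tag CPM in sh-B7-H3 (1) Cd4 cells, a difference of -0.11 ± 0.04 with TMM factors (adjusted p = 0.072) and 0.20 with tag totals (adjusted p = 0.025), beside a 6.81-fold rise in Il2rb RNA. In Cd4 cells with 3 or more Nkg7 UMIs CD122 was 1177 to 1611 tag CPM, below the 1547 to 2084 tag CPM of cells without Nkg7 when each library was compared with itself. The isotype sum was lower there too (2058 to 3327 against 3085 to 5171 tag CPM), and CD122 divided by that sum ran the other way, at 0.568, 0.583, 0.484 and 0.460 with Nkg7 against 0.502, 0.501, 0.408 and 0.403 without. CD122 in cells with an Il2rb UMI was 0.794 to 0.977 times that in cells without one over all classes and libraries, and in Cd4 cells the isotype tags were also lower with a UMI in every library (2186 to 3305 against 3029 to 4654 tag CPM). Divided by the isotype sum, CD122 was higher in Cd4 cells with an Il2rb UMI in all 4 libraries (0.470 to 0.572 against 0.403 to 0.506, each library against itself). In Foxp3 cells it was lower with a UMI in 2 of 4 libraries, at 0.535 against 0.537 in sh-NC library 2 and 0.417 against 0.457 in sh-B7-H3 (1) library 1. This division was chosen after seeing the data and was not tested. Scaled to the isotype tags, CD122 was lower in knockdown libraries in Cd4, Cd8 and Foxp3 cells (-0.22, -0.26 and -0.36, adjusted p = 0.018, 0.0065 and 0.0100). In Cd8 cells it passed on every scale, at -0.15 with TMM factors (adjusted p = 0.0092) and 0.27 with tag totals (adjusted p = 0.0028), so its direction was set by the scale. CD215, the Il15ra protein, was higher in all classes with TMM factors (0.15 to 0.22) but passed in none when scaled to the isotype tags (0.04 to 0.08, adjusted p = 0.20 to 0.54), and was 0.50 to 0.57 with tag totals (adjusted p = 1.1e-05 to 0.0013). IL-21R passed with TMM factors only in Foxp3 cells (0.35 ± 0.09, adjusted p = 0.039) and in no class when scaled to the isotype tags, and in all 3 classes with tag totals (0.44, 0.51 and 0.69 in Cd4, Cd8 and Foxp3 cells, adjusted p = 0.0041, 0.0011 and 0.00031). IL-21R was 0.0596 to 0.0996 of the isotype sum in cells with and without an Il21r UMI, below an average isotype tag.

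CD25, the Il2ra protein, marked Foxp3 cells, at 1183, 1158, 1199 and 1100.4 tag CPM in the 4 libraries against 249.8 to 280.4 tag CPM in Cd4 cells (log2 difference 2.12 ± 0.07, adjusted p = 9.1e-07). In Cd4 cells without an Il2ra UMI CD25 was only 0.0635 to 0.0798 of the sum of the 9 isotype tags, less than an average isotype tag, so the tag difference is measured from background and was not ranked against that of the RNA. The Foxp3 values overlapped between the groups, and the knockdown difference of -0.37 ± 0.07 with TMM factors (adjusted p = 0.017) was -0.02 with tag totals (adjusted p = 0.86) and -0.56 when scaled to the isotype tags (adjusted p = 0.014). The CD25 difference in Cd4 and Cd8 cells was -0.17 and -0.21 with TMM factors and 0.14 and 0.20 with tag totals, and passed on both scales with opposite signs. Scaled to the isotype tags it was -0.28 and -0.33 (adjusted p = 0.011 and 0.0074). CD25 of Cd4 cells without Nkg7 UMIs was 264 and 274 tag CPM in sh-NC against 321 and 329 tag CPM in sh-B7-H3 (1) libraries. Divided by the isotype sum of those cells, which was not tested, CD25 was lower with knockdown, at 0.0813 and 0.0887 against 0.0646 and 0.0636. Among Foxp3 cells CD25 was 1.83 to 2.17 times as high in cells with an Il2ra UMI as in cells without one, and among Cd4 cells 3.11 to 4.90 times, from 12 to 24 cells with a UMI per library. CD127 was 1.43 to 2.14 times as high in Cd4 cells with an Il7r UMI, while CD124 was 0.888 to 1.27 times as high in Cd4 cells with an Il4ra UMI. Divided by the isotype sum, which was not tested, CD124 in Cd4 cells was 7.287, 7.09, 3.867 and 4.043 with an Il4ra UMI. Without one it was 6.265, 6.235, 3.353 and 3.431. That ratio was lower with a UMI in Cd8 cells of sh-NC library 2 (7.085 against 7.27) and in sh-B7-H3 (1) Foxp3 cells (2.775 and 2.624 against 2.781 and 2.708). Over both groups together CD127 did not differ between Foxp3 and Cd4 cells beyond its spread (0.01 ± 0.09, adjusted p = 0.94), although Il7r RNA did. The CD127 class levels ran opposite ways in the groups. In sh-NC libraries Foxp3 cells held 10331 and 10585 tag CPM against 11651 and 13307 in Cd4 cells. In sh-B7-H3 (1) libraries Foxp3 cells held 8940 and 9685 against 7109 and 7839 tag CPM. CD124 was lower in Foxp3 cells (-0.47 ± 0.04, adjusted p = 9.9e-05) where the Il4ra RNA difference of 0.06 did not pass (0.28, adjusted p = 0.040, without TMM factors). Between Cd8 and Cd4 cells CD124 was 0.21 ± 0.04 higher (adjusted p = 0.014), where the Il4ra RNA difference was -0.64. CD124 measured 19062 and 18731 in Cd8 against 19619 and 18439 tag CPM in Cd4 cells of sh-NC libraries. In sh-B7-H3 (1) libraries it measured 14508 and 15349 against 13429 and 13765 tag CPM. Among all tags 34% passed between Foxp3 and Cd4 and 13.2% between Cd8 and Cd4 cells.

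**Figure D5:**
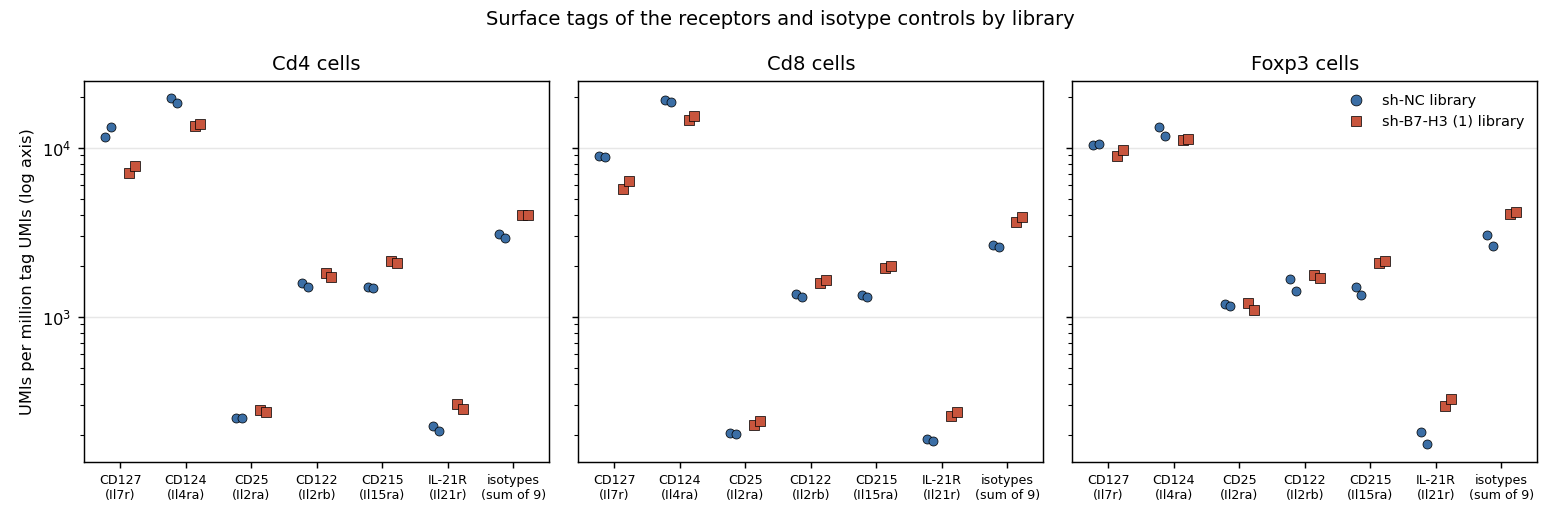
Surface tags of 6 members and the sum of 9 isotype control tags, in tag CPM (log axis), 1 point per library, circles for sh-NC and squares for sh-B7-H3 (1). CD127 and CD124 are lower in the squares of Cd4 and Cd8 cells, and CD122, CD215 and IL-21R stand higher there together with the isotype tags (2581 to 3093 against 3629 to 4015 tag CPM in these 2 classes).

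The cytokines that bind these receptors were nearly absent from the sorted cells. Of 8 ligand genes, Il2 and Il21 could be tested in Cd4 cells, Il2 in Cd8 cells and none in Foxp3 cells, and none passed. Il2 measured 2.79 to 3.51 CPM in Cd4 cells (-0.25 ± 0.28, adjusted p = 0.51), 0.973 to 1.89 CPM in Cd8 cells (0.77 ± 0.33, adjusted p = 0.072) and 1.42 to 4.41 CPM in Foxp3 cells. Il21 measured 1.74 to 3.99 CPM in Cd4 cells (-0.42 ± 0.33, adjusted p = 0.34) and at most 2.52 CPM elsewhere. Il4 reached 4.41 CPM in 1 Foxp3 sum and at most 2.35 CPM in Cd4 cells, and Il7, Il15, Il13 and Tslp stayed at or below 1.22 CPM in every sum. Il9 had 0 UMIs in all 12 sums.

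Among 19 other cytokine receptor genes, 17 were tested in Cd4 cells (5 higher, 4 lower), 16 in Cd8 cells (6 higher, 4 lower) and 17 in Foxp3 cells (2 higher, 0 lower), with medians of -0.08, 0.13 and 0.19, where 39.9%, 41.2% and 5.26% of all genes passed in the 3 classes. Il10ra, the interleukin-10 receptor chain, rose from 6.69 and 8.02 to 28.8 and 34.5 CPM in Cd4 cells (2.03 ± 0.13) and from 9.07 and 10.4 to 44.5 and 42.2 CPM in Cd8 cells (2.06 ± 0.09), the highest called value of the pathway lists in both classes. Crlf2, which pairs with Il7r in the receptor for thymic stromal lymphopoietin, was the second highest called gene of the pathway lists in Foxp3 cells (115 and 117 against 187 and 180.4 CPM, 0.67 ± 0.10, adjusted p = 2.8e-05), and Il1rl1, the interleukin-33 receptor, the first (0.83 ± 0.17, adjusted p = 0.0014). Crlf2 also rose in Cd4 cells (0.70, adjusted p = 1.6e-08) and Cd8 cells (0.99, adjusted p = 5.9e-12). Ifngr2, an interferon-gamma receptor chain, fell most, by 1.08 in Cd4 (adjusted p = 5.5e-07) and 1.58 in Cd8 cells (adjusted p = 3.6e-10), followed by Il6ra, an interleukin-6 receptor chain, at -1.04 (adjusted p = 5.6e-11) and -1.24 (adjusted p = 4.1e-11). Ifngr1, the other interferon-gamma receptor chain, rose in the same classes, by 0.55 in Cd4 (adjusted p = 4.8e-08) and 0.26 in Cd8 cells (adjusted p = 0.00044). Il12rb1, an interleukin-12 receptor chain, rose by 1.41 ± 0.25 in Cd4 cells (adjusted p = 9.6e-05) and by 0.75 in Cd8 cells (adjusted p = 0.0072).

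All 10 JAK and STAT genes of the list were tested in each class. In Cd4 cells 4 were higher and 3 lower with a median of 0.04, in Cd8 cells 3 higher and 4 lower with a median of 0.07, and in Foxp3 cells 1 higher and 1 lower with a median of -4.5e-05. Of 18 genes listed as targets of these receptors, 6 were higher and 8 lower in Cd4 cells, 7 higher and 9 lower in Cd8 cells, and 0 higher and 4 lower in Foxp3 cells, with medians of -0.06, -0.15 and -0.17. The JAK, STAT and target counts stand beside the same 39.9%, 41.2% and 5.26% of all genes. Cish, a feedback inhibitor induced by STAT5, rose from 21.2 and 23.7 to 83.8 and 68.8 CPM in Cd8 cells (1.66 ± 0.08, adjusted p = 1.5e-13) and by 1.08 in Cd4 cells (adjusted p = 2.7e-09). In Foxp3 cells the lowest called values were those of Myc, a growth regulator, at -1.04 ± 0.22 (adjusted p = 0.0023) and Lta, which encodes lymphotoxin alpha, at -1.005 ± 0.23 (adjusted p = 0.0044). Both also fell in the other classes. Myc was at -0.55 in Cd4 (adjusted p = 5.1e-05) and -0.79 in Cd8 cells (adjusted p = 1.4e-08). Lta was at -0.57 in Cd4 (adjusted p = 0.0022) and -0.98 in Cd8 cells (adjusted p = 8.2e-06).

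Over the 12 sums of class and library, the genes with the pattern most like a member's were named by the correlation of log2 CPM among the 2204 genes that averaged 50 CPM or more. The sums share libraries and classes, so these values are descriptions. Il2ra was nearest to Pim1 (r = 0.99), Tspan13 and Rtn4, and Il2rb to Cdk6 (r = 0.99), Elk3 and Anxa2. Il7r was nearest to Ddit4 (r = 0.99), Gpx1 and Rcsd1, Il4ra to Foxo1 (r = 0.98), Zfp36 and Chd3, and Il2rg to Cd53 (r = 0.99), Agfg1 and Rheb. The likeness was lower for Il15ra, nearest to Clta (r = 0.93), Dbi and Pfdn5, and for Il21r, nearest to Dusp2 (r = 0.88) and Eif3j1.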

How the data were processed

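Single-cell RNA and antibody-tag libraries of sorted T cells were read from the deposited tables of UMI counts per gene, tag and cell, which the authors made with Cell Ranger. The methods name version 6.0.1, the filtered files' headers cellranger-6.1.1, and the submitters' processing notes name mm10 and Seurat 4.0.0. Counts were used as deposited. Called cells with 200 to 3000 genes and at most 5% mitochondrial UMIs were kept, and doublets were removed by comparison with simulated pairs of cells, which took 31.1% to 36.6% of the scored cells and left 2820 to 6000 cells per library. Counts were summed per library and class, low sums were filtered, and TMM-scaled sums were tested with edgeR's quasi-likelihood test (edgeR 4.0.16, R 4.3.3), adjusted by Benjamini-Hochberg over all genes or tags tested. DESeq2 1.42.0 was an alternative. Strata were set by Nkg7 (0, or 3 or more UMIs) and Klrg1 (0, or 1 or more). CPM are UMIs per 1000000 RNA UMIs of a sum. Exact permutation tests were two-sided.

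The members and gene lists were chosen with earlier results of these data known. Named genes were all members, every ligand, the 2 highest and 2 lowest called pathway genes of each class, and the 3 genes most like each member, of which 1 is not reported here. Same-numbered libraries deviated with correlations of 0.01 in Cd4, -0.04 in Cd8 and -0.12 in Foxp3 cells, so the numbers were not taken as pairs. On simulated counts the test recovered 78.1% of 96 genes changed 2-fold in Cd4 cells, 89.9% of 99 in Cd8 cells and 66.3% of 98 in Foxp3 cells, and of genes changed 1.5-fold 66.3%, 68.7% and 26.3%. Scaling to totals without TMM factors, the crossed pairing, the tag to isotype ratios and the comparison between strata were chosen after seeing the data.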

Additional observations from a re-analysis of the deposited data

Results flagged for a closer look

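The knockdown effect on 4 members differed between classes by the test of the difference itself, fitted on all 12 sums by edgeR's quasi-likelihood test. For Cd8 against Cd4 cells Il2rb alone of the members passed, beside 2.99% of 11714 genes. For Foxp3 against Cd4 cells Il2rb, Il7r, Il2rg and Il2ra passed, beside 6.75% of genes. The effect on Il2rb was lower in Cd8 than in Cd4 cells (-0.99 on the log2 scale, adjusted p = 2.1e-15) and lower in Foxp3 than in Cd4 cells (-2.41, adjusted p = 5.6e-26). The effect in Foxp3 against Cd4 cells was higher for Il7r (1.13, adjusted p = 6.0e-16) and Il2rg (0.36, adjusted p = 0.00054) and lower for Il2ra (-0.61, adjusted p = 0.046). The classes come from the same libraries. These tests of a difference were run in the main setting with TMM factors alone. For Il2ra, the Foxp3 effect lost its call in several alternatives and the Cd4 effect, from 54 to 113 UMIs per library, was not called. For Il2rg, the Cd4 effect lost its call without TMM factors and the Foxp3 effect was not called.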

How the results depend on the processing

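The calls of Cd4 and Cd8 cells changed less than those of Foxp3 cells. DESeq2 called 2137 genes in Cd4 cells (4460 by edgeR), 2489 in Cd8 cells (4746) and 166 in Foxp3 cells (462), and a 2-fold limit left 1077, 995 and 84. In Foxp3 cells 732 genes passed without doublet removal, 204 with at least 2 Foxp3 UMIs and 306 without cells with myeloid UMIs. Of the 2 members called in Foxp3 cells, 1 passed with no upper gene limit, with lineage by surface tags and without cells with myeloid UMIs, and 0 passed with at least 2 Foxp3 UMIs and in DESeq2. With the replicate number as a block, 307 genes and 1 member passed in Foxp3 cells (Il2ra adjusted p = 0.085), 4561 genes and 5 members in Cd4 and 4802 genes and 5 members in Cd8 cells, and the crossed pairing gave 649 genes and 3 members in Foxp3 cells. Leaving out 1 library gave 3255 to 3972 genes and 5 to 6 members in Cd4 cells, 3733 to 4262 genes and 5 to 6 members in Cd8 cells, and 183 to 462 genes and 0 to 2 members in Foxp3 cells, with the lowest counts without sh-B7-H3 (1) library 2 (183 genes, 0 members) and 304 genes and 1 member without sh-NC library 1. Il2ra passed in Cd4 cells without sh-NC library 2 (0.52, adjusted p = 0.030) or with the 10% mitochondrial limit (0.39, adjusted p = 0.042), and in Cd8 cells without sh-B7-H3 (1) library 2 (1.27, adjusted p = 0.024, against 0.02 without sh-B7-H3 (1) library 1), and Il21r in Cd8 cells without sh-B7-H3 (1) library 1 (-0.15, adjusted p = 0.042). The sign of Il15ra in Foxp3 cells turned (-0.37 to 0.12 when 1 library was left out, 0.12 without sh-B7-H3 (1) library 2) and also without doublet removal (0.20), with no upper gene limit (0.066), with the 10% mitochondrial limit (0.13) and with lineage by surface tags (0.0073), and that of Il15ra between Foxp3 and Cd4 cells without doublet removal (-0.070), none of which passed. Totals without TMM factors turned Il2rg between Cd8 and Cd4 cells (-0.089) and between Cd4 strata (0.091), Il21r between Foxp3 and Cd8 cells (0.0077) and between Klrg1 strata (0.17), CD25 in Cd4 and Cd8 cells (0.14 and 0.20) and CD122 in Cd4, Cd8 and Foxp3 cells (0.20, 0.27 and 0.17), and isotype scaling turned IL-21R in Cd8 cells (-0.015). The causes were not tested. The Foxp3 sums rest on 203 to 352 cells per library.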
